A study of Mus musculus with 13 samples.

Results

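The 10 integrin subunit genes described here were taken from a table of 11989 genes by their symbols, 6 alpha subunits (*Itga1*, *Itga2*, *Itga4*, *Itgae*, *Itgal* and *Itgam*) and 4 beta subunits (*Itgb1*, *Itgb2*, *Itgb3* and *Itgb7*), and all 10 were found and passed the filter on low values. The rule that picks their rows uses gene names and no measured value. RNA was sequenced from 13 samples of splenic natural killer (NK) cells, cytotoxic lymphocytes of the innate immune system, of wild-type mice of the C57BL/6 strain. The design sets cells cultured with the cytokine interleukin-15 (IL-15) beside naive cells, with and without antibody against the activating receptor NK1.1. The groups were HD cells with anti-NK1.1 (n = 3), LD cells with anti-NK1.1 (n = 2), HD cells without stimulation (n = 2), naive cells with anti-NK1.1 (n = 3) and naive cells without stimulation (n = 3). HD and LD cells had been cultured in IL-15 for 72 hours, anti-NK1.1 was given for 6 hours, and the labels neither spell out HD and LD nor give a culture time for naive cells. No mouse age, sorting scheme or statement that replicates came from separate animals is given in the sources used here, so the p-values reflect only how far these samples scatter, possibly for technical reasons.

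Integrins are membrane receptors made of 1 alpha and 1 beta subunit, which bind matrix proteins or counter-receptors on other cells and are switched to a high-affinity state from inside the cell by talin and kindlin. The products of *Itga1* (CD49a) and *Itga2* (CD49b) both pair with that of *Itgb1* and bind collagen. In mice CD49a marks innate lymphoid cells of group ILC1 and tissue-resident NK cells, whereas CD49b marks conventional circulating NK cells. The product of *Itga4* pairs with that of *Itgb1* or *Itgb7*, *Itgae* (CD103) with *Itgb7*, *Itgal* and *Itgam* (CD11b) with *Itgb2*, and the beta subunit of *Itgb3* with those of *Itgav* or *Itga2b*.

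The upstream promoter sequences of 3 members are shown, those of *Itga1* and *Itga2* because they are neighbours on 1 chromosome that moved in opposite directions, and that of *Itga4* because it had the largest fall among the members in HD against naive cells, with and without stimulation. They are the 250 bases before the annotated start in RefSeq (GRCm38.p6, the mm10 assembly), 5′ to 3′ on the strand of the gene, and 6 of the 10 members were matched there. The *Itga1* window lies at chr13:115101965-115102214 and that of *Itga2* at chr13:114932101-114932350, both on the minus strand. The *Itga4* window lies at chr2:79255176-79255425 on the plus strand.
Itga1: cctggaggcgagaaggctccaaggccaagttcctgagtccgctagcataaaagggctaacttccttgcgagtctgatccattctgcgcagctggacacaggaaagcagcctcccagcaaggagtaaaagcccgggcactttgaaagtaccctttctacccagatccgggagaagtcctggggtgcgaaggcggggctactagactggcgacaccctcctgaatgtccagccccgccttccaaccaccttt
Itga2: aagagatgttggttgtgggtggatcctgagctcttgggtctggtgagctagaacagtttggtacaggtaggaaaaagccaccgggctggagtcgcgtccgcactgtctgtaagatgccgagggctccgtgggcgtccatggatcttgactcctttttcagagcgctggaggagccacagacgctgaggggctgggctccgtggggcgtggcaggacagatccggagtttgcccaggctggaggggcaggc
Itga4: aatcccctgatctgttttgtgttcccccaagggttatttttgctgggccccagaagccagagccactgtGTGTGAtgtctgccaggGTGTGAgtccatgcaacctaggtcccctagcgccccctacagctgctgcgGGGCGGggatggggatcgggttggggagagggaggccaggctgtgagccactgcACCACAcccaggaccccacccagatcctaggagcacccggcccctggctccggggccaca
Capitals mark matches to the motifs searched on both strands. These were TCACAC (T-box factors such as *Eomes* and *Tbx21*), TGTGGT (RUNX), TGANTCA (AP-1), GGGCGG (SP and KLF), CCGGAAG (ETS), TTCNNNGAA (STAT) and TATAAA. The *Itga4* window held TCACAC at 2 places, TGTGGT at 1 and GGGCGG at 1, all except GGGCGG in the reverse orientation. Of 32851 promoter windows of the same length, 12.3% held TCACAC, 14.0% TGTGGT and 32.7% GGGCGG. None of the 7 motifs was found in the *Itga1* and *Itga2* windows. The other motifs occurred in 6.75% (TGANTCA), 6.91% (CCGGAAG), 7.02% (TTCNNNGAA) and 12.4% (TATAAA) of windows. The *Itga2* and *Itga1* gene bodies lie 20995 bases apart with 1 gene model, *Gm47776*, between them.

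Levels are given as CPM, the authors' normalized counts scaled to 1 common total per library. At the median gene a library held 112 to 463 reads, and 155 to 809 genes had none. The 12 NK cell markers summed to 5304 to 18856 CPM in every library. Other cell types differed between groups. Platelet and red cell markers (9 of 9) summed to 0.603 to 2.23 CPM in HD libraries, with no read of *Gp9*, *Gp6*, *Hba-a1* or *Hbb-bs*, to 61.8 to 96.5 in LD, 99.9 to 122 in naive anti-NK1.1 and 135 to 204 in naive unstimulated libraries. Myeloid markers (14 of 14) summed to 43.3 to 96.8, 79.6 to 128 and 387 to 638 CPM in HD, LD and naive libraries. Basophil and mast cell markers (7 of 7) summed to 9.63 to 22.9 CPM in HD libraries, with no read of *Fcer1a* or *Ms4a2*, to 69.8 to 69.9 in LD, 37.9 to 54.8 in naive anti-NK1.1 and 101 to 171 in naive unstimulated libraries. In naive cells after anti-NK1.1, where 14.7% of all genes tested fell, 4 of these 7 fell, *Fcer1a* (-3.55), *Cpa3* (-3.44), *Ms4a2* (-3.44) and *Mcpt8* (-1.54). Of the 9 platelet and red cell markers 2 fell, beside the same 14.7% of all genes, and both were platelet genes, *Gp6* (-1.83) and *Ppbp* (-1.03). The T cell markers in the table (4 of 8) summed to 14.7 to 71.1 CPM over all libraries and those of B cells (4 of 7) to at most 14.7. The part of these cells in the member values was not tested, and in bulk RNA fewer cells of a type and less RNA per cell cannot be told apart. Libraries were made in 2 pools, 1 with all naive libraries and LD replicate 3, the other with all HD libraries and LD replicate 1. Both responses to anti-NK1.1 therefore lie within 1 pool, whereas HD against naive is bridged by LD libraries only.

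**Figure D1:**
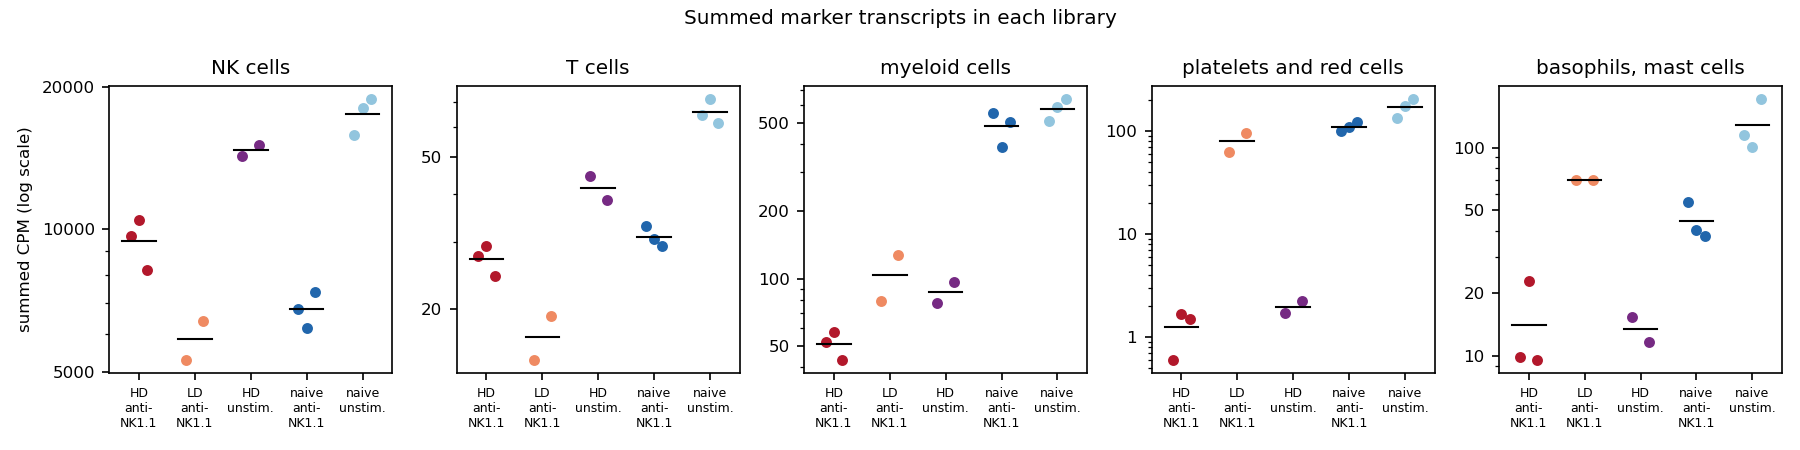
Summed CPM (log scale) of marker genes of NK cells, T cells, myeloid cells, platelets and red cells, and basophils and mast cells, with 1 point per library and a line at the group mean. NK cell markers are at least 5304 CPM in every library, whereas platelet and red cell markers are at most 2.23 CPM in HD libraries and at least 61.8 CPM in the others.

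After anti-NK1.1, 7 of the 10 subunits changed in naive cells and 4 in HD cells. Genes were called at an adjusted p under 0.05 in limma with Benjamini-Hochberg adjustment over 11543 genes, and differences are log2 changes ± standard error. In naive cells 2 members rose, *Itga1* and *Itgb3*, where 14.5% of all genes tested rose, and 5 fell (*Itga2*, *Itgal*, *Itgam*, *Itgb2* and *Itgb7*), where 14.7% fell. *Itga4*, *Itgae* and *Itgb1* did not pass. The median log2 change of the members was -0.67, beside 0.01 over all genes tested. In HD cells 0 members rose (15.9% of all genes) and 4 fell (17.2% of all genes), namely *Itga2*, *Itgb2*, *Itgb3* and *Itgb7*, with a median of -0.44 beside -0.01. The responses themselves differed in 3 members: *Itgb2* was in the higher direction, HD minus naive (7.22% of all genes), and *Itga1* and *Itgb3* in the lower (8.01% of all genes).

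HD and naive cells differed before any stimulation. Without stimulation, 2 members were higher in HD than in naive cells, *Itga1* and *Itgb3* (16.6% of all genes were higher), and 6 were lower, *Itga2*, *Itga4*, *Itgal*, *Itgam*, *Itgb2* and *Itgb7* (17.3% of all genes). The median was -1.43, beside 0.02 over all genes tested. After anti-NK1.1, HD cells had 0 members higher (21.1% of all genes) and 6 lower than naive cells (22.4% of all genes), *Itga2*, *Itga4*, *Itgb1*, *Itgb2*, *Itgb3* and *Itgb7*. LD cells had 0 members higher (6.57% of all genes) and 3 lower than naive cells after anti-NK1.1 (7% of all genes), *Itga4*, *Itgb3* and *Itgb7*. HD had 0 higher (3.27% of all genes) and 1 lower than LD cells (5.33% of all genes), *Itgb2*. These comparisons share libraries, the naive anti-NK1.1 ones entering 4 of the 7, so the lists are not independent of each other.

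**Figure D2:**
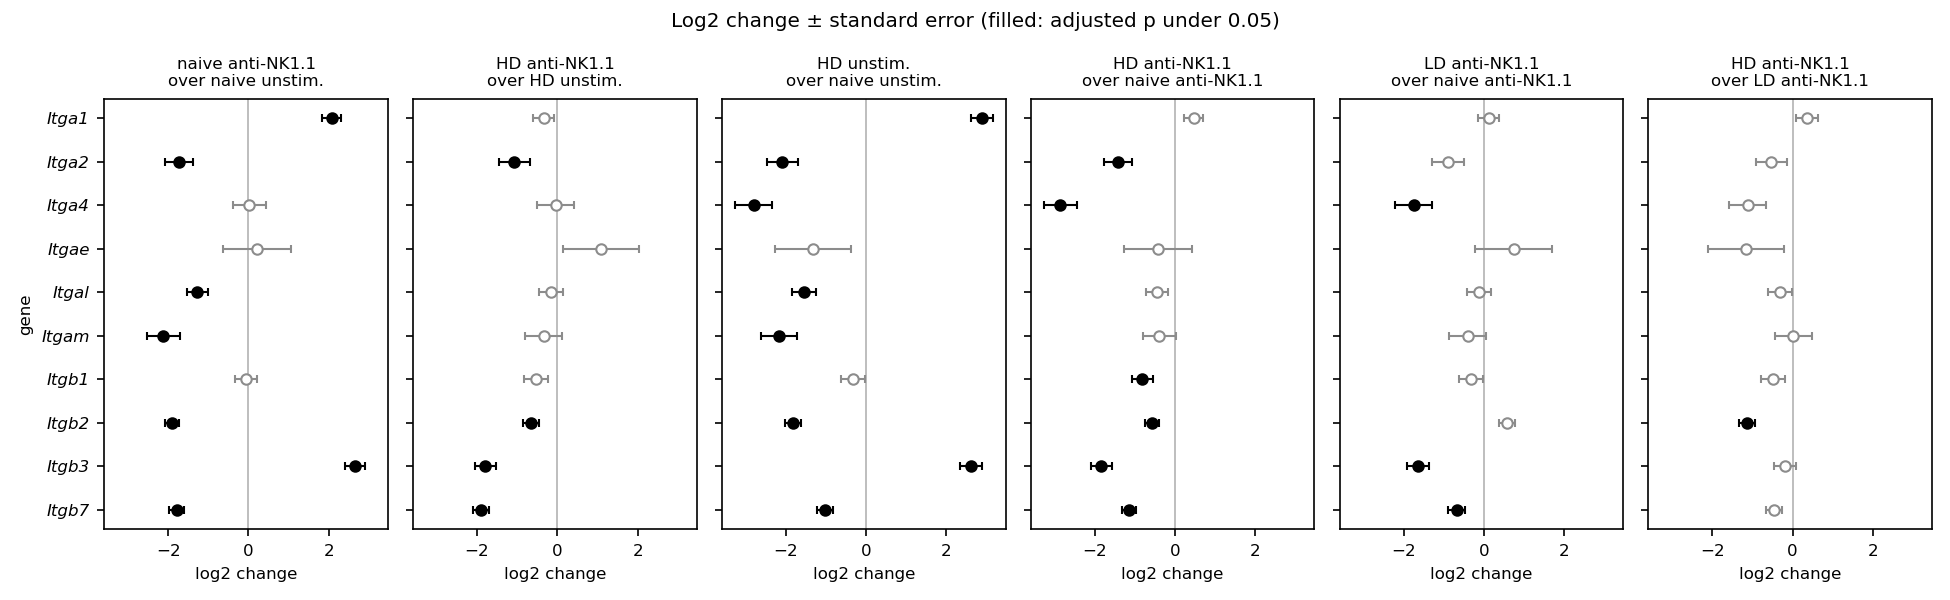
Log2 change of the 10 members (rows) in 6 comparisons (panels), with bars for 1 standard error and filled points for an adjusted p under 0.05. *Itga1* and *Itgb3* lie to the right of 0 both in naive cells after anti-NK1.1 (2.07 and 2.66) and in unstimulated HD against naive cells (2.88 and 2.61).

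*Itga1* (ENSMUSG00000042284, chromosome 13, 114953096 to 115101964, mm10) had 53.3, 43.9 and 44.1 CPM in HD anti-NK1.1 libraries, 38.4 and 35.0 in LD anti-NK1.1, 49.3 and 71.3 in HD unstimulated, 29.4, 40.2 and 32.5 in naive anti-NK1.1, and 5.90, 10.2 and 8.43 in naive unstimulated libraries. The 3 naive unstimulated libraries were the lowest and overlapped no other group. In naive cells it rose by 2.07 ± 0.24 (adjusted p = 2.15e-05). It was already high in unstimulated HD cells, 2.88 ± 0.27 above unstimulated naive cells (adjusted p = 1.8e-06, and 0.00454 with pool as a factor). HD cells gave no call after anti-NK1.1 (-0.34 ± 0.27, 95% interval -0.91 to 0.23, adjusted p = 0.355). The HD response was lower than the naive one by 2.41 ± 0.36 on the log2 scale (-2.41, adjusted p = 4.78e-04). After stimulation HD and naive cells did not differ past the threshold (0.47 ± 0.24, adjusted p = 0.119), although their libraries did not overlap. From the highest group mean, the order was HD unstimulated, HD anti-NK1.1, LD anti-NK1.1, naive anti-NK1.1 and naive unstimulated, and HD unstimulated overlapped with HD anti-NK1.1, and LD with naive anti-NK1.1. Of the exonic bases of *Itga1*, 3.68% (685 bases) overlap the protein-coding model *Gm49395* on the same strand, and how the counting treated them is not given in the sources used here.

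*Itga2* (ENSMUSG00000015533, chromosome 13, 114833081 to 114932100) ran the other way. It had 8.89, 7.08 and 11.8 CPM in HD anti-NK1.1 libraries, 15.5 and 11.1 in LD anti-NK1.1, 24.1 and 15.1 in HD unstimulated, 21.5, 33.2 and 20.2 in naive anti-NK1.1, and 147, 59.6 and 62.2 in naive unstimulated libraries. The naive unstimulated libraries were the highest, replicate 1 far above the other two, and the neighbouring groups below them overlapped. It fell in naive cells (-1.74 ± 0.35, adjusted p = 0.00203) and in HD cells (-1.07 ± 0.39, adjusted p = 0.0484). The HD call was kept in 11 of 22 alternatives. It was lost without HD unstimulated replicate 1 (-0.73, adjusted p = 0.309) or 2 (-1.41, adjusted p = 0.058) and without HD anti-NK1.1 replicate 1 (-1.05, adjusted p = 0.0949) or 2 (-0.89, adjusted p = 0.14). It was also lost without naive anti-NK1.1 replicate 1 or 5 and without either LD library, which enter only the estimate of the spread (adjusted p = 0.0539 to 0.0594). The difference between the responses was 0.67 ± 0.52 (adjusted p = 0.428). HD cells were lower than naive cells without stimulation (-2.09 ± 0.39, adjusted p = 9.32e-04) and with it (-1.42 ± 0.35, adjusted p = 0.00474), the second not past the threshold with pool as a factor (adjusted p = 0.11). Basophils and platelets also carry CD49b. The basophil and mast cell markers summed to 9.63 to 22.9 CPM in HD anti-NK1.1, 69.8 to 69.9 in LD anti-NK1.1, 11.7 to 15.4 in HD unstimulated, 37.9 to 54.8 in naive anti-NK1.1 and 101 to 171 CPM in naive unstimulated libraries. They and *Itga2* were both highest in the last. In LD against naive cells after anti-NK1.1, 2 of the 7 were higher and 0 lower (6.57% and 7% of all genes). There *Itga2* was at -0.89 ± 0.39 (adjusted p = 0.15). Between naive groups 4 of the 7 markers fell (14.7% of all genes, median log2 change -1.54). Between unstimulated HD and naive cells 6 of 7 were lower (17.3% of all genes). Between HD groups 0 of 7 were called (median -0.08), where 15.9% of all genes rose and 17.2% fell. The part of basophils and platelets in the *Itga2* values was not tested.

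Per length of the longest coding transcript, the ratio of *Itga1* to *Itga2* was 3.89, 4.02 and 2.42 in HD anti-NK1.1 libraries, 1.60 and 2.04 in LD anti-NK1.1, 1.32 and 3.06 in HD unstimulated, 0.887, 0.784 and 1.04 in naive anti-NK1.1, and 0.0261, 0.111 and 0.0879 in naive unstimulated libraries. *Itga2* thus exceeded *Itga1* in all 3 naive unstimulated libraries and *Itga1* exceeded *Itga2* in all 7 IL-15 cultured libraries, with naive anti-NK1.1 libraries near parity. That parity depends on the scaling by length. In CPM, *Itga1* was above *Itga2* in the naive anti-NK1.1 libraries (29.4 against 21.5, 40.2 against 33.2 and 32.5 against 20.2). Of 11 further genes linked to the ILC1 side, 4 rose and 2 fell in naive cells after anti-NK1.1 (14.5% and 14.7% of all genes, median 0.48 beside 0.01 over all genes tested). The chemokine receptor gene *Cxcr6* rose by 3.57 ± 0.22 (adjusted p = 9.46e-08) and *Tnfsf10*, which encodes the death ligand TRAIL, by 1.31 ± 0.38 (adjusted p = 0.0176). *Rora* (1.66) and *Inpp4b* (1.48) rose too, and *Tmem176a* (-1.46) and *Tmem176b* (-1.42) fell. In unstimulated HD against naive cells, where *Itga1* was also higher, 3 of the 11 were higher and 4 lower (16.6% and 17.3% of all genes, median -0.99 beside 0.02). The higher ones were *Inpp4b* (3.46), *Cxcr6* (2.89) and *Tnfsf10* (1.17), and the lower ones *Il7r* (-2.64), which encodes the interleukin-7 receptor, *Tmem176b* (-1.15), *Tmem176a* (-1.11) and *Rora* (-0.99). *Zfp683*, encoding the residency factor Hobit, averaged under 1 CPM in every group (0.107 in HD anti-NK1.1, 0.385 in LD anti-NK1.1, 0.216 in HD unstimulated, 0.0233 in naive anti-NK1.1 and 0.833 in naive unstimulated). Of 11 genes linked to conventional NK cells, 2 rose and 5 fell in naive cells (14.5% and 14.7% of all genes, median -0.76 beside 0.01). *Eomes*, their lineage factor, rose by 0.92 ± 0.22 (adjusted p = 0.00595) and *Irf8* by 1.33, while those that fell included *S1pr5* (-3.36), *Klrg1* (-3.35), *Cma1* (-1.40) and *Klra8* (-0.96). In unstimulated HD against naive cells 0 were higher and 9 lower (16.6% and 17.3% of all genes, median -1.60 beside 0.02). *Eomes* averaged 112, 325, 344, 980 and 511 CPM in HD anti-NK1.1, LD anti-NK1.1, HD unstimulated, naive anti-NK1.1 and naive unstimulated cells.

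*Itgb1* (ENSMUSG00000025809, chromosome 8, 128685654 to 128733200), the common beta partner of the products of *Itga1*, *Itga2* and *Itga4*, was called in 1 of the 7 comparisons. It had 347, 162 and 248 CPM in HD anti-NK1.1 libraries, 329 and 349 in LD anti-NK1.1, 389 and 316 in HD unstimulated, 535, 314 and 446 in naive anti-NK1.1, and 506, 438 and 386 in naive unstimulated libraries. All neighbouring groups in the order of the means overlapped. Its changes were -0.06 ± 0.27 in naive cells (95% interval -0.63 to 0.50, adjusted p = 0.886) and -0.54 ± 0.30 in HD cells (adjusted p = 0.179). It was lower in HD than in naive cells after anti-NK1.1 (-0.81 ± 0.27, adjusted p = 0.0238), with overlapping libraries, and the call was lost without HD anti-NK1.1 replicate 2 (-0.52, adjusted p = 0.127), without naive anti-NK1.1 replicate 1 (-0.64, adjusted p = 0.105) or replicate 5 (-0.77, adjusted p = 0.0669), and with pool as a factor (-0.72, adjusted p = 0.428).

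*Itga4* (ENSMUSG00000027009, chromosome 2, 79255426 to 79333123), whose product binds VCAM-1, fibronectin and, with that of *Itgb7*, MAdCAM-1, was lower in cultured than in naive cells. It had 51.4, 50.1 and 39.7 CPM in HD anti-NK1.1 libraries, 132 and 78.7 in LD anti-NK1.1, 56.6 and 41.0 in HD unstimulated, 778, 168 and 300 in naive anti-NK1.1, and 275, 338 and 405 in naive unstimulated libraries. Every naive library exceeded every cultured library, and LD libraries lay between HD and naive ones. HD cells were lower than naive cells by about the same amount without stimulation (-2.80 ± 0.46, adjusted p = 3.23e-04) and with it (-2.86 ± 0.41, adjusted p = 8.29e-05). With pool as a factor these were -3.54 (adjusted p = 0.0214) and -3.60 (adjusted p = 0.016). Anti-NK1.1 gave no call in naive cells (0.02 ± 0.41, 95% interval -0.85 to 0.89, adjusted p = 0.974) or HD cells (-0.04 ± 0.46, 95% interval -1.02 to 0.93, adjusted p = 0.953), and the naive value ranged from -0.58 to 0.53 with single libraries left out. LD cells were lower than naive cells after anti-NK1.1 (-1.74 ± 0.46, adjusted p = 0.0221), but the call was kept in 16 of 22 alternatives. It was lost without LD replicate 1 (-2.11, adjusted p = 0.0506), which leaves the libraries of 1 pool, and without LD replicate 3 (-1.37, adjusted p = 0.183). Naive anti-NK1.1 replicate 1 was high for *Itga4*, and without it the HD against naive change was -2.26 and the LD against naive change -1.14, both still called. Between HD and LD cells the change was -1.12 ± 0.46 (adjusted p = 0.154). With single libraries left out it ranged from -1.49 to -0.75, and it passed only without naive anti-NK1.1 replicate 1 (adjusted p = 0.0397). Of the exonic bases of *Itga4*, 8.04% overlap *Cerkl* on the opposite strand. How strand was used in counting is not given in the sources used here.

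*Itgb7* (ENSMUSG00000001281, chromosome 15, 102215995 to 102231944), the other beta partner of the *Itga4* product and that of *Itgae*, had 45.3, 42.4 and 34.9 CPM in HD anti-NK1.1 libraries, 53.8 and 57.9 in LD anti-NK1.1, 145 and 161 in HD unstimulated, 92.4, 75.1 and 104 in naive anti-NK1.1, and 311, 307 and 312 in naive unstimulated libraries. The 5 groups did not overlap in any library, in the order naive unstimulated, HD unstimulated, naive anti-NK1.1, LD anti-NK1.1 and HD anti-NK1.1 from the highest. It fell after anti-NK1.1 in naive cells (-1.79 ± 0.18, adjusted p = 6.13e-06) and in HD cells (-1.91 ± 0.20, adjusted p = 7.82e-06). The difference between the responses was -0.12 ± 0.27 (95% interval -0.69 to 0.45, adjusted p = 0.812). HD cells were lower than naive cells without stimulation (-1.02 ± 0.20, adjusted p = 0.00123) and with it (-1.14 ± 0.18, adjusted p = 1.66e-04). Both calls were lost with pool as a factor, at -0.92 (adjusted p = 0.145) and -1.03 (adjusted p = 0.0846). LD cells were lower than naive cells after anti-NK1.1 (-0.68 ± 0.20, adjusted p = 0.035), a call kept in 14 of 22 alternatives. The call was lost within the naive pool, which holds 1 LD library (-0.63). It was also lost without LD replicate 3 (-0.74), naive anti-NK1.1 replicate 1 (-0.66, adjusted p = 0.0853) and replicate 5 (-0.58, adjusted p = 0.112).

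*Itgae* (ENSMUSG00000005947, chromosome 11, 73090583 to 73147446), the E-cadherin-binding subunit of intraepithelial lymphocytes, was near the limit of detection. It had 1, 9 and 3 reads in HD anti-NK1.1 libraries, 56 and 7 in LD anti-NK1.1, 0 and 2 in HD unstimulated, 14, 8 and 4 in naive anti-NK1.1, and 2, 3 and 15 in naive unstimulated libraries. A count of 0 allows up to 3 reads, for counting error only. No comparison passed, and at this depth a difference was not detectable: the naive response was 0.21 ± 0.85 (95% interval -1.62 to 2.03, adjusted p = 0.885) and the HD response 1.09 ± 0.95 (adjusted p = 0.411).

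**Figure D3:**
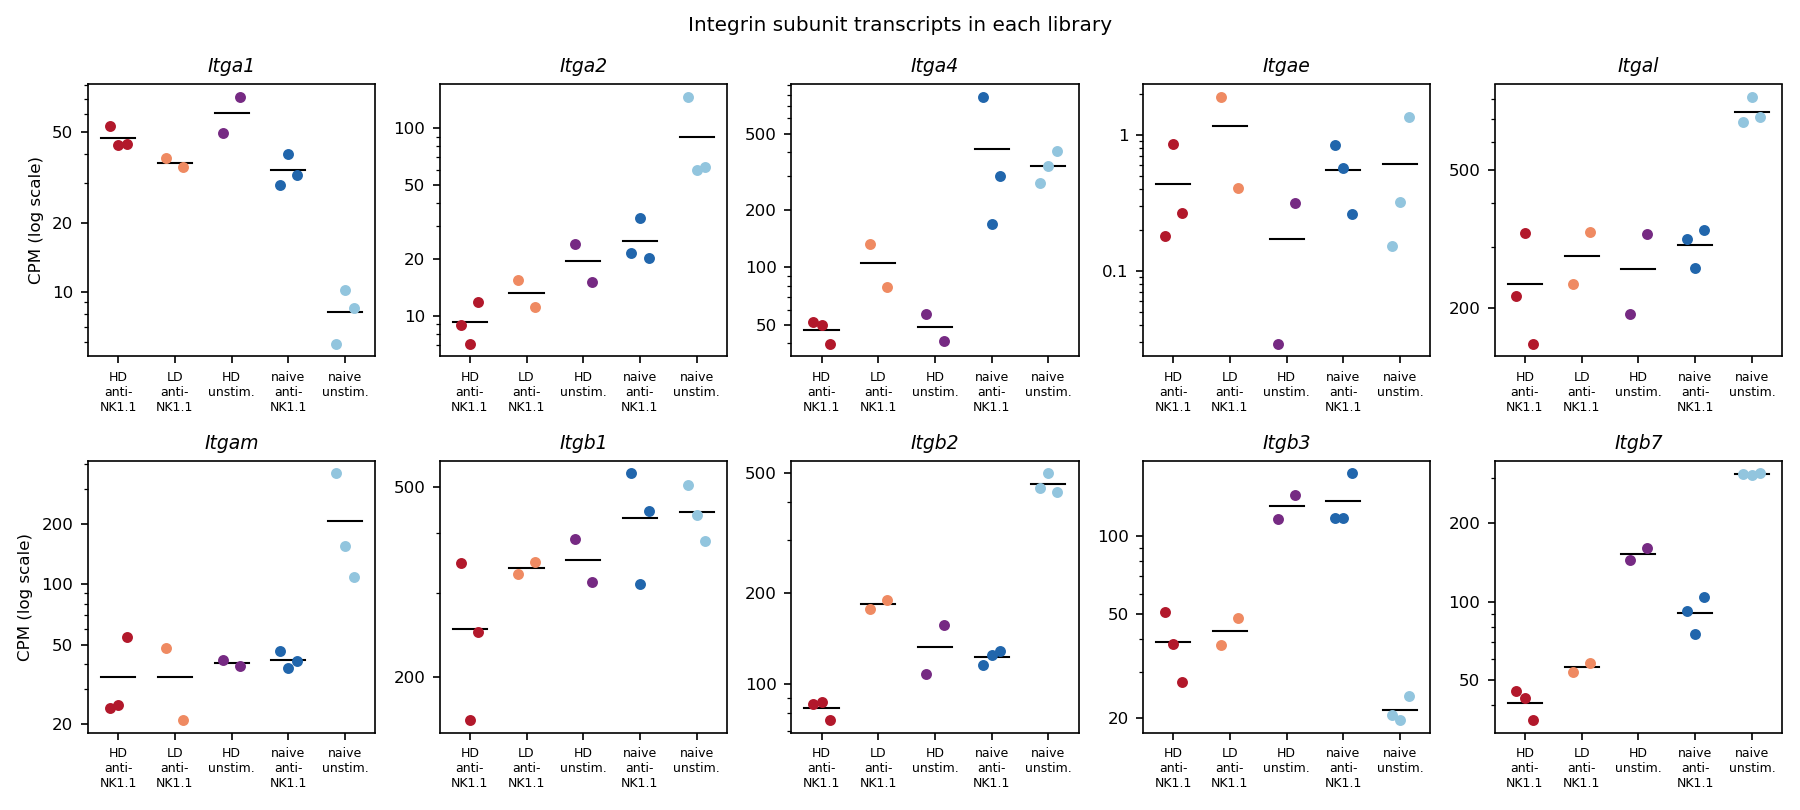
CPM (log scale) of each member in each of the 13 libraries, with 1 point per library and a line at the group mean, each panel with its own scale. *Itga1* and *Itgb3* are lowest in naive unstimulated libraries, *Itga2*, *Itgal*, *Itgam*, *Itgb2* and *Itgb7* are highest there, and *Itga4* is higher in all naive than in all cultured libraries.

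The 3 leukocyte integrin members built on the *Itgb2* product (CD18) were highest in unstimulated naive cells. *Itgal* (ENSMUSG00000030830, chromosome 7, 127296260 to 127335138) encodes the alpha subunit of LFA-1, the ICAM receptor of the cytotoxic synapse. It had 217, 328 and 158 CPM in HD anti-NK1.1 libraries, 235 and 331 in LD anti-NK1.1, 193 and 326 in HD unstimulated, 317, 261 and 336 in naive anti-NK1.1, and 683, 809 and 706 in naive unstimulated libraries. The naive unstimulated libraries stood above all others, and the remaining groups overlapped. It fell in naive cells (-1.27 ± 0.27, adjusted p = 0.00294) and was lower in unstimulated HD than in unstimulated naive cells (-1.54 ± 0.30, adjusted p = 0.00128, and -1.05 with adjusted p = 0.268 with pool as a factor). The HD response was -0.16 ± 0.30 (adjusted p = 0.724). The difference between the responses was 1.11 ± 0.40 (adjusted p = 0.0811). With single libraries left out it ranged from 0.73 to 1.48. It passed without HD anti-NK1.1 replicate 3 (1.36, adjusted p = 0.0308) and was 1.48 without HD unstimulated replicate 2.

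*Itgam* (ENSMUSG00000030786, chromosome 7, 128062640 to 128118491) encodes CD11b, which is gained as mouse NK cells mature. It had 24.0, 24.8 and 54.6 CPM in HD anti-NK1.1 libraries, 47.8 and 20.9 in LD anti-NK1.1, 41.9 and 39.0 in HD unstimulated, 46.5, 38.3 and 41.3 in naive anti-NK1.1, and 358, 156 and 109 in naive unstimulated libraries. The 3 naive unstimulated libraries spread over a wide range but all lay above the rest, which overlapped. It fell in naive cells (-2.12 ± 0.41, adjusted p = 0.00171) and was lower in unstimulated HD than naive cells (-2.17 ± 0.46, adjusted p = 0.00249, and -3.36 with adjusted p = 0.0214 with pool as a factor). The HD response was -0.34 ± 0.46 (adjusted p = 0.615). The difference between the responses was 1.78 ± 0.62 (adjusted p = 0.0689). It ranged from 1.3 to 2.15 with single libraries left out, and passed only without naive unstimulated replicate 6 (2.15, adjusted p = 0.03). Myeloid cells also carry CD11b. Their 14 markers summed to 387 to 551 CPM in naive anti-NK1.1 and 506 to 638 CPM in naive unstimulated libraries, which are overlapping ranges. Between these groups 4 of the 14 fell, where 14.7% of all genes did, with a median log2 change of -0.38. They were *Ly6c2* (-2.75), *Flt3* (-2.33), *Adgre1* (-1.5) and *Lyz2* (-1), while *H2-Aa* (-0.05), *H2-Ab1* (-0.06) and *Cd74* (0.14) were not called. The sums can therefore overlap although single markers fell. In unstimulated cells the markers summed to 78.0 to 96.8 CPM in HD and 506 to 638 CPM in naive libraries. There 0 of the 14 were higher and 9 lower in HD cells (16.6% and 17.3% of all genes, median -2.13). The part of myeloid cells in the *Itgam* values was not tested. Exons of the protein-coding model *Gm49368* on the same strand cover 68.7% of those of *Itgam*, so reads of the pair could be split by the counting and the *Itgam* values are uncertain.

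*Itgb2* (ENSMUSG00000000290, chromosome 10, 77530252 to 77565708) had 85.6, 87.4 and 75.7 CPM in HD anti-NK1.1 libraries, 177 and 189 in LD anti-NK1.1, 108 and 156 in HD unstimulated, 115, 125 and 128 in naive anti-NK1.1, and 444, 497 and 430 in naive unstimulated libraries. HD anti-NK1.1 libraries were the lowest and naive unstimulated ones the highest, and HD unstimulated overlapped with naive anti-NK1.1. It fell by 1.90 ± 0.18 in naive cells (-1.90, adjusted p = 3.44e-06) and by 0.65 ± 0.20 in HD cells (-0.65, adjusted p = 0.0199). The HD call was lost without HD unstimulated replicate 2 (-0.39, adjusted p = 0.243), without HD anti-NK1.1 replicate 3 (-0.59, adjusted p = 0.0576) and with the HD groups fitted alone (adjusted p = 0.06). The responses differed by 1.24 ± 0.26 (HD minus naive, adjusted p = 0.00576). It was lower in HD than LD cells after anti-NK1.1 (-1.14 ± 0.20, adjusted p = 0.00213). Within the HD pool, which holds 1 LD library (replicate 1), this change was -1.09. *Itgb2* was lower in unstimulated HD than naive cells (-1.81 ± 0.20, adjusted p = 8.64e-06). After anti-NK1.1 HD cells were lower than naive cells (-0.57 ± 0.18, adjusted p = 0.0182), a call lost without HD anti-NK1.1 replicate 3 (-0.50, adjusted p = 0.0607) or naive anti-NK1.1 replicate 5 (-0.53, adjusted p = 0.0555) and with pool as a factor (-0.47, adjusted p = 0.42). LD cells were at 0.57 ± 0.20 against naive cells (adjusted p = 0.0675), with a range of 0.53 to 0.62 when single libraries were left out.

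*Itgb3* (ENSMUSG00000020689, chromosome 11, 104608000 to 104670476), which encodes the beta subunit of the vitronectin and osteopontin receptor and of the platelet fibrinogen receptor, responded in opposite directions. It had 51.1, 38.5 and 27.4 CPM in HD anti-NK1.1 libraries, 38.2 and 48.4 in LD anti-NK1.1, 117 and 145 in HD unstimulated, 118, 118 and 175 in naive anti-NK1.1, and 20.4, 19.5 and 24.3 in naive unstimulated libraries. HD unstimulated and naive anti-NK1.1 libraries shared the high range, HD and LD anti-NK1.1 libraries the middle, and naive unstimulated libraries were the lowest. It rose by 2.66 ± 0.25 in naive cells after anti-NK1.1 (adjusted p = 3.28e-06), whereas it fell in HD cells (-1.79 ± 0.27, adjusted p = 2.04e-04). The difference between the responses was -4.44 ± 0.37 (adjusted p = 2.99e-06), rank 104 of 11543 genes by size. Both responses held in 22 of 22 alternatives. Unstimulated HD cells were above unstimulated naive cells (2.61 ± 0.27, adjusted p = 6.18e-06, and 2.96 with adjusted p = 0.00332 with pool as a factor). After anti-NK1.1, HD cells were below naive cells (-1.83 ± 0.25, adjusted p = 4.74e-05, and -1.49 with adjusted p = 0.0764 with pool as a factor). LD cells were also below naive cells (-1.64 ± 0.27, adjusted p = 0.00155). Within the naive pool, which holds 1 LD library (replicate 3), the change was -1.47. Platelets carry this subunit. Their markers and those of red cells summed to 0.603 to 1.69 CPM in HD anti-NK1.1, 61.8 to 96.5 in LD anti-NK1.1, 1.71 to 2.23 in HD unstimulated, 99.9 to 122 in naive anti-NK1.1 and 135 to 204 CPM in naive unstimulated libraries. In LD against naive cells after anti-NK1.1, 4 of the 9 were lower (7% of all genes), all red cell genes (*Hba-a1*, *Hbb-bs*, *Hbb-bt* and *Alas2*). The 5 platelet genes were not called there, at 1.09 (*Pf4*), 0.53 (*Gp6*), -0.46 (*Ppbp*), -0.69 (*Gp1bb*) and -1.35 (*Gp9*). The summed markers thus do not follow platelets alone, and the part of platelets in the *Itgb3* values was not tested.

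*Itgav* (chromosome 2, 83724397 to 83806916), not a member, encodes the alpha partner of the *Itgb3* product in the vitronectin receptor, and *Itga2b* the platelet partner. *Itgav* had 128, 127 and 88.7 CPM in HD anti-NK1.1 libraries, 95.6 and 130 in LD anti-NK1.1, 21.4 and 27.0 in HD unstimulated, 121, 117 and 143 in naive anti-NK1.1, and 20.7, 17.1 and 13.4 in naive unstimulated libraries. It rose with anti-NK1.1 both in naive cells (2.91 ± 0.22, adjusted p = 6.38e-07) and in HD cells (2.23 ± 0.25, adjusted p = 1.59e-05), with no overlap between stimulated and unstimulated libraries. The difference between the responses was -0.68 ± 0.34 (adjusted p = 0.196). *Itgb3* and *Itgav* therefore rose together in naive cells and moved in opposite directions in HD cells. *Itga2b* had 2, 0 and 0 reads in HD anti-NK1.1 libraries, 191 and 154 in LD anti-NK1.1, 0 and 1 in HD unstimulated, 126, 129 and 115 in naive anti-NK1.1, and 165, 139 and 233 in naive unstimulated libraries, and was near 0 in the libraries where the platelet and red cell markers were lowest.

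**Figure D4:**
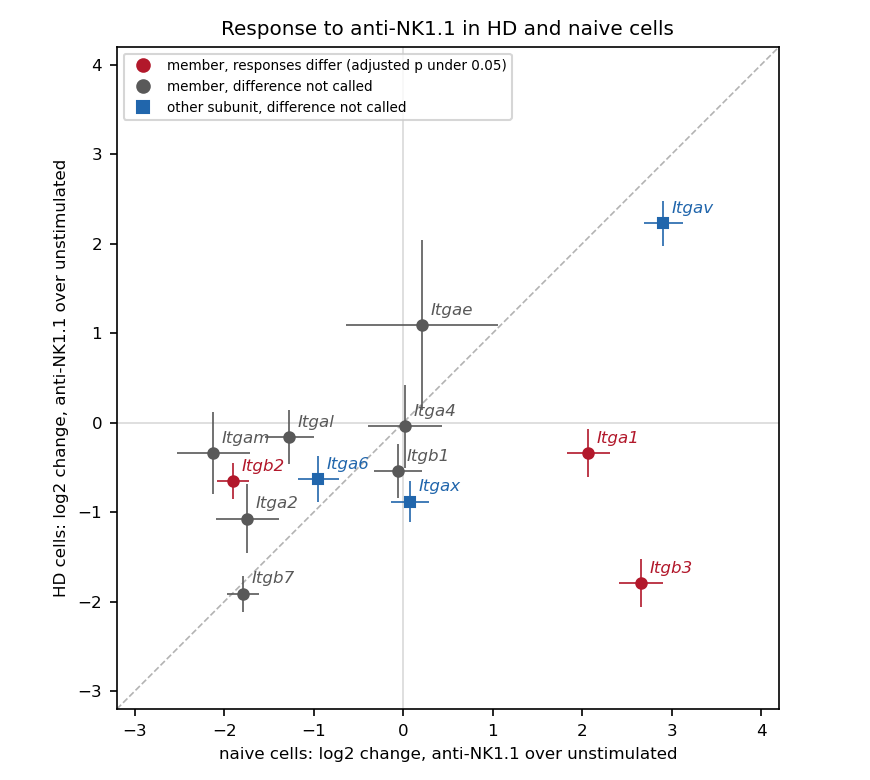
Log2 response to anti-NK1.1 in HD cells (vertical axis) against that in naive cells (horizontal axis) for the 10 members (circles) and *Itgav*, *Itgax* and *Itga6* (squares), with bars for 1 standard error, a dashed line of equal response and red for a called difference between the responses. *Itgb3* lies lower right (-1.79 in HD and 2.66 in naive cells), *Itgav* upper right (2.23 and 2.91) and *Itgb7* close to the line (-1.91 and -1.79).

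Levels were compared between genes per length, here as CPM per kilobase of the longest coding transcript. This assumes that reads cover the whole transcript, which was not tested. In unstimulated naive cells the order by mean was *Itgb2* (154 ± 11.8, SD, n = 3), *Itgal* (140 ± 12.8), *Itgb1* and *Itgb7*, of which each overlapped the next, then *Itgam* and *Itga4*, which overlapped, *Itga2*, *Itgb3*, *Itga1* and *Itgae*. In HD anti-NK1.1 cells it was *Itgb1* (66.1 ± 24.3, SD, n = 3) and *Itgal* (44.9 ± 16.5), which overlapped, then *Itgb2*, *Itgb7*, then *Itgam*, *Itgb3*, *Itga4* and *Itga1*, of which each overlapped the next, then *Itga2* and *Itgae*. Of the summed level of the 4 beta subunits, *Itgb1* made up 55.8% ± 9.49 in HD anti-NK1.1 (SD, n = 3), 49.7% ± 0.375 in LD anti-NK1.1 (n = 2), 42.8% ± 7.26 in HD unstimulated (n = 2), 52.9% ± 6.35 in naive anti-NK1.1 (n = 3) and 29.8% ± 2.86 in naive unstimulated cells (n = 3). *Itgb3* made up 5.83% ± 1.35, 4.18% ± 0.492, 10.5% ± 1.31, 11.2% ± 2.30 and 0.955% ± 0.165 in the same order. Among the 6 alpha members *Itgal* held the largest mean share in each group, from 38.9% to 80.1% over libraries. In naive anti-NK1.1 cells, however, *Itga4* reached 51.0% in replicate 1. These orders and shares cover the members only. *Itgax*, not a member, was above *Itgal* per length in naive anti-NK1.1 (95.3 against 58.4) and LD anti-NK1.1 cells (73.3 against 54.2). In the other groups its mean was below that of *Itgal*.

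**Figure D5:**
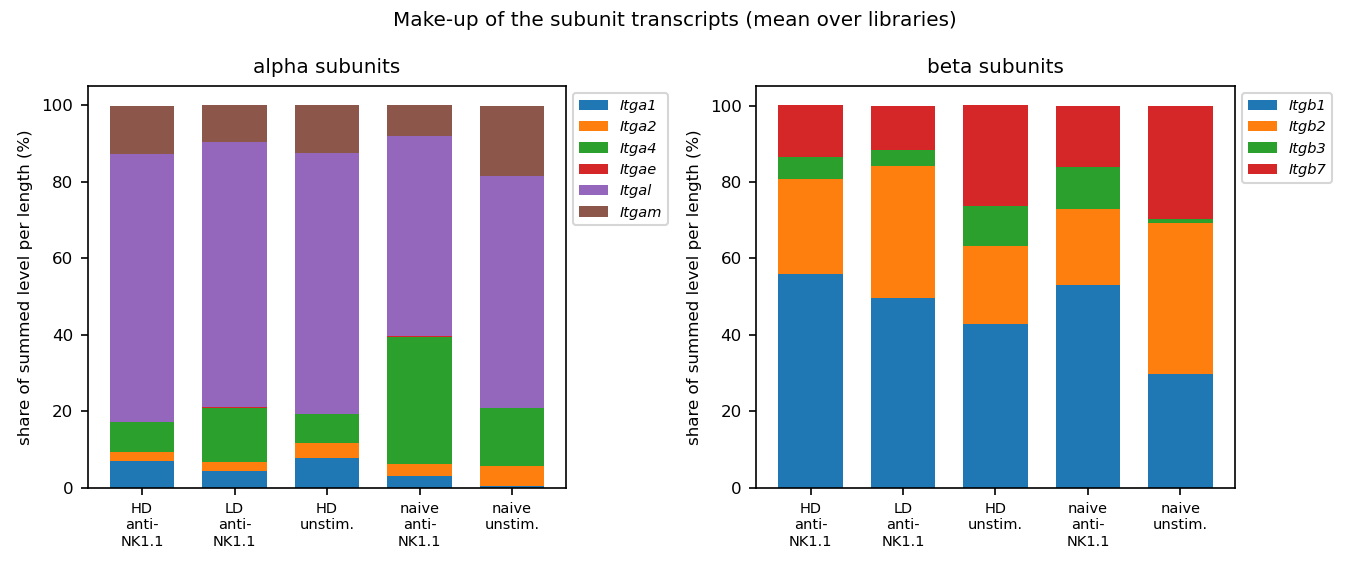
Mean share (%) of each subunit in the summed CPM per kilobase of the 6 alpha members (left) and the 4 beta members (right), by group. *Itgb3* takes 10.5% of the beta level in HD unstimulated and 11.2% in naive anti-NK1.1 cells, against 0.955% in naive unstimulated cells.

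Of 16 other integrin subunits listed, 12 were in the table and 10 were tested. In naive cells 1 rose (*Itgav*) and 1 fell (*Itga6*, a laminin-binding subunit, -0.95 ± 0.23, adjusted p = 0.00719), where 14.5% and 14.7% of all genes did, with a median of -0.57 beside 0.01 over all genes. In HD cells 2 rose, *Itgav* and *Itga9*, and 1 fell, *Itgax* (CD11c, another partner of the *Itgb2* product; -0.88 ± 0.23, adjusted p = 0.00993), where 15.9% and 17.2% of all genes did, with a median of -0.46 beside -0.01. *Itga9* had 10, 10 and 6 reads in HD anti-NK1.1 against 0 and 0 in HD unstimulated libraries, so no fold is given. Unstimulated HD cells had 0 higher and 5 lower than naive cells (16.6% and 17.3% of all genes, median -1.32 beside 0.02), among them *Itgax* (-1.60 ± 0.23, adjusted p = 1.19e-04) and *Itga6* (-1.61 ± 0.26, adjusted p = 2.83e-04). After anti-NK1.1, *Itgax* averaged 66.1 CPM in HD, 296 in LD and 385 in naive cells, and was lower in HD than in LD (-2.17 ± 0.23, adjusted p = 4.62e-05) and naive cells (-2.55 ± 0.21, adjusted p = 4.57e-07). The myeloid marker sums were in the same order of groups, 43.3 to 57.5, 79.6 to 128 and 387 to 551 CPM, and their part in the *Itgax* values was not tested. In none of the 10 was the difference between the responses called. *Itga3*, *Itga5*, *Itgad*, *Itgb4* and *Itgb5* averaged at most 11 CPM in every group.

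Of 24 listed genes for integrin ligands, 17 were in the table and 15 were tested, and in HD cells those that passed all rose after anti-NK1.1. In naive cells 1 rose and 5 fell after anti-NK1.1 (14.5% and 14.7% of all genes, median -0.50 beside 0.01), and in HD cells 6 rose and 0 fell (15.9% and 17.2% of all genes, median 0.53 beside -0.01). *Icam1*, which encodes the main LFA-1 ligand, had 88.5, 69.7 and 82.7 CPM in HD anti-NK1.1 and 22.7 and 37.0 in HD unstimulated libraries, and 60.6, 54.1 and 60.1 in naive anti-NK1.1 and 88.2, 111 and 84.9 in naive unstimulated libraries. It rose in HD cells (1.46 ± 0.23, adjusted p = 2.82e-04), fell in naive cells (-0.69 ± 0.21, adjusted p = 0.0227), and the responses differed by 2.15 ± 0.31 (adjusted p = 4.09e-04), a direction opposite to that of *Itgb3*. *Spp1*, encoding osteopontin, a ligand of the *Itgav* and *Itgb3* pair, had 4686, 2048 and 3828 CPM in HD anti-NK1.1 libraries, 171 and 181 in LD anti-NK1.1, 1840 and 1028 in HD unstimulated, 33.6, 21.9 and 37.2 in naive anti-NK1.1, and 14.9, 18.7 and 15.2 in naive unstimulated libraries. No groups overlapped. After anti-NK1.1 it was higher in HD than in naive cells by 6.78 ± 0.30 (adjusted p = 3.15e-09) and in LD than in naive cells by 2.55 ± 0.34 (adjusted p = 3.09e-04). *Thbs1* (thrombospondin) had 13, 35 and 17 reads in HD anti-NK1.1 and 0 and 0 in HD unstimulated libraries, and *Col4a1* (a collagen chain) 40, 50 and 65 against 4 and 0. *Madcam1*, encoding the ligand of the *Itga4* and *Itgb7* pair, had 9, 6 and 13 against 0 and 0. *Thbs1* and *Col4a1* were lower in unstimulated HD than in unstimulated naive cells (adjusted p = 2.36e-06 and 4.82e-04). After anti-NK1.1, HD and naive cells did not differ past the threshold in either (adjusted p = 0.471 and 0.489). In naive cells *Vcam1*, encoding an *Itga4* ligand, fell, with 4, 4 and 5 reads in naive anti-NK1.1 and 14, 13 and 24 in naive unstimulated libraries, and *Icam4*, a red cell ICAM, fell with 1, 4 and 3 against 7, 19 and 21 reads. After anti-NK1.1 *Icam2*, another LFA-1 ligand, was lower in HD than in naive (-1.35 ± 0.21, adjusted p = 1.36e-04) and LD cells (-0.91 ± 0.23, adjusted p = 0.0237). *Cdh1*, encoding E-cadherin, was lower in LD than in naive cells (-1.59 ± 0.33, adjusted p = 0.0067) and higher in HD than in LD cells (1.33 ± 0.33, adjusted p = 0.0232).

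Among 35 tested genes for integrin adaptors, activators and cytoskeletal links, 2 rose and 13 fell in naive cells (14.5% and 14.7% of all genes, median -0.31 beside 0.01) and 2 rose and 13 fell in HD cells (15.9% and 17.2% of all genes, median -0.28 beside -0.01). *Dok2*, an adaptor that restrains signalling, fell in naive (-2.58 ± 0.19, adjusted p = 4.89e-07) and HD cells (-2.75 ± 0.22, adjusted p = 6.26e-07). *Flna*, a filamin that competes with talin for beta tails, fell in naive cells (-2.18 ± 0.22, adjusted p = 8.04e-06), while *Lims1*, encoding PINCH of the integrin-linked kinase complex, rose (2.03 ± 0.35, adjusted p = 6.93e-04). In HD cells *Skap1*, which links the T cell adaptor ADAP to LFA-1 activation, fell (-2.40 ± 0.30, adjusted p = 4.37e-05), as did *Cytip* (-2.18 ± 0.23, adjusted p = 7.71e-06), which binds the LFA-1 regulator cytohesin. Unstimulated HD cells had 3 adaptors higher and 11 lower than naive cells (16.6% and 17.3% of all genes, median -0.30 beside 0.02). *Vcl* (vinculin) had 2.02, 2.14 and 2.48 CPM in HD anti-NK1.1 libraries, 11.2 and 10.8 in LD anti-NK1.1, 2.09 and 1.73 in HD unstimulated, 15.7, 18.5 and 14.8 in naive anti-NK1.1, and 24.5, 14.9 and 11.5 in naive unstimulated libraries. It was lower in HD than in LD cells after anti-NK1.1 (-2.28 ± 0.32, adjusted p = 4.64e-04). Vinculin is also abundant in platelets, whose marker sums were likewise lowest in HD libraries, and their part in this value was not tested. After anti-NK1.1, 2 adaptors were higher and 13 lower in HD than in naive cells (21.1% and 22.4% of all genes, median -0.34 beside 0.02), and 1 was higher and 6 were lower in LD than in naive cells (6.57% and 7% of all genes, median -0.34 beside 0.01). *Parvb*, encoding a parvin of the integrin-linked kinase complex, had 3, 3 and 8 reads in HD anti-NK1.1 and 1 and 0 in HD unstimulated libraries, against 26 to 81 in the LD and naive libraries. *Cyth1* (cytohesin) was lower in unstimulated HD than naive cells (-2.89 ± 0.58, adjusted p = 0.00161), and *Fyb* (ADAP) and *Skap2* were lower in LD than naive cells after anti-NK1.1 (-1.41 ± 0.30 and -1.01 ± 0.25, adjusted p = 0.00664 and 0.0163). *Tln2*, a talin, had 9, 4 and 7 reads in HD against 1 and 0 in LD anti-NK1.1 libraries. The responses differed in *Flna* (1.29 ± 0.33, adjusted p = 0.0183), *Pxn* (paxillin, -1.22 ± 0.29, adjusted p = 0.0123) and *Dok1* (-1.15 ± 0.30, adjusted p = 0.0197), HD minus naive.

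The members' patterns were compared over all 13 libraries by the root mean square of the difference between 2 genes' log2 values, each centred on its mean over groups. All genes share these libraries and their depth, so this is a description. Between members the smallest value was 0.40, for *Itgal* and *Itgb2*, whose products form LFA-1, and the next was 0.49, for *Itga2* and *Itgam*. The largest was 2.28, for *Itga1* and *Itga4*, and *Itga1* and *Itga2* stood at 2.20. Over all tested genes, *Itga1* lay closest to *Zfyve21* (0.29), *Glmn* (0.37) and *Zfp760* (0.42), and *Itga2* to *Vopp1* (0.44), *Elovl7* (0.46) and *Ahnak* (0.46). *Itgb3* lay closest to *Cables1* (0.50), *Prnp* (0.51) and *Ccr2* (0.52), and *Itga4* to *Adcy6* (0.46), *Tent5c* (0.52) and *Ctse* (0.57). *Itgb2* lay at 0.26 from *Fasl*, *Prkcb* and *Ctsw*, which encode Fas ligand, a kinase of the protein kinase C family and cathepsin W. *Itgb7* lay closest to *Vrk3* (0.19), *Nup210* (0.21) and *Slc44a2* (0.23), and *Itgal* to *Zfp622* (0.20), *Rap1b* (0.22) and *Ppm1m* (0.25). *Itgb1* lay closest to *Actr1a* (0.23), *Rap1gds1* (0.24) and *Zc3h14* (0.25), *Itgam* to *Dnajb4* (0.40), *Klf12* (0.48) and *Itga2* (0.49), and *Itgae*, on few reads, to *Zfp937* (0.63), *Rnf215* (0.65) and *Zfp763* (0.70).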

How the data were processed

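RNA from 13 NK cell samples was sequenced as strand-specific libraries from mRNA, per the labels' protocols, and mm10 is the build per the submitters' processing notes. The aligner, counting tool and strand setting are not given in the sources used here. The authors deposited 1 table of 11989 genes, whose values, by their distribution, are log2 of quantile-normalized counts with 1 added, ranging from 0 to 17.92. Once sorted, the 13 columns were almost the same (median spread 0.009). Pools come from the file header.

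The filter kept genes that reached 10 on the linear scale in 2 or more libraries (446 were left out, 11543 tested). One model of 5 groups was fitted with limma 3.58.1 in R 4.3.3 on the deposited log2 values, with a variance trend in empirical Bayes (8 residual and 6.3 prior degrees of freedom), 7 contrasts, two-sided, and Benjamini-Hochberg adjustment. The script was tested on simulated data. CPM are back-transformed values scaled to 1 common library total. Since quantile normalization gives every library 1 distribution, reads were recovered from the order of values, which held to rank 7000 (mean 287 reads). Lengths, coordinates and overlaps come from GENCODE M21, promoters from RefSeq. Python 3.11.15, pandas 2.3.3, numpy 2.4.6 and matplotlib 3.10.9 were used.

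The members, gene lists and tests were chosen with earlier results of these data known. Besides the members, genes named were the tested other integrin subunits, the 3 called ligands and the 3 called adaptors with the largest change in each contrast, and the 3 genes most like a member. The ILC1-side, conventional NK and other cell markers named singly were chosen after their values were seen. Alternatives were no filter, a stricter filter, no variance trend, robust moderation, a fit to only the groups of the contrast, a replicate block, pool as a factor, median-ratio scaling, 8 added before log2 and each library left out. The titles placed 2 naive anti-NK1.1 samples in their group, since their stimulation label states a time of 6 hours but no antibody.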

Additional observations from a re-analysis of the deposited data

Results flagged for a closer look

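The response to anti-NK1.1 differed between HD and naive cells, by a test of the difference itself in limma, in 3 of the 10 integrin subunits. For *Itga1* the log2 response in HD cells minus that in naive cells was -2.41, with a rise in naive cells and no call in HD cells, where it was high without stimulation. For *Itgb3* it was -4.44, with a fall in HD cells and a rise in naive cells. For *Itgb2* it was 1.24, with a smaller fall in HD than in naive cells.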

How the results depend on the processing

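Of 70 member values (10 genes in 7 contrasts), 32 were called, and all 32 calls were kept without a filter, with a stricter filter (at least 50 in 3 libraries, which left out *Itgae* and kept 63 values), robust moderation, median-ratio scaling and 8 added before log2. No call changed sign under any alternative. Without the variance trend 29 were kept, with only the compared groups 28, with pool as a factor 22 and with the replicate block 23. Counts of members called moved by over 1.5 times as follows. HD against naive cells after anti-NK1.1, with 6, gave 1 with pool as a factor (*Itga4*) and 3 with the replicate block. The HD response, with 4, gave 2 with the replicate block. LD against naive cells, with 3, gave 1 without the variance trend, 1 with the 2 groups alone, 1 with pool as a factor and 0 with the replicate block. Smaller shifts were the HD response at 3 with pool as a factor, without the variance trend or with the 2 groups alone, unstimulated HD against naive cells at 6 in place of 8 with pool as a factor (without *Itgal* and *Itgb7*), HD against naive cells after anti-NK1.1 at 5 with the 2 groups alone, and the difference between responses at 2 in place of 3 with the replicate block (*Itgb2*, adjusted p = 0.0518). With libraries left out these counts ranged from 2 to 4 for the HD response, 4 to 6 for HD against naive cells after anti-NK1.1, 1 to 4 for LD against naive cells, 1 to 2 for HD against LD cells and 3 to 4 for the difference between responses. The cause of these shifts was not tested. Deviations from group means in samples of the same replicate number correlated at -0.143 to 0.162. In groups of 2 or 3 libraries, and without samples of unlike number beside them, these correlations cannot decide whether the numbers pair samples. The 9 calls lost under the block are therefore less certain.

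Uncalled values that changed sign under an alternative were as follows. With the replicate block they were *Itga4* in the HD response (0.11) and *Itgb7* in the difference between responses (0.04). With pool as a factor they were *Itgal* for HD against naive (0.06) and LD against naive cells after anti-NK1.1 (0.13), *Itgae* for LD against naive (-0.28) and *Itgam* for HD against LD cells (-0.58). With libraries left out, the naive response ranged from -0.58 to 0.53 for *Itga4*, -0.37 to 0.96 for *Itgae* and -0.24 to 0.15 for *Itgb1*, and the HD response from -0.28 to 0.19 for *Itga4* and -0.54 to 0.22 for *Itgal*. LD against naive cells ranged from -0.28 to 1.76 for *Itgae*, -0.37 to 0.13 for *Itgal* and -1 to 0.19 for *Itgam*. HD against LD cells ranged from -0.58 to 0.61 for *Itgam* and -0.41 to 0.04 for *Itgb3*. The difference between responses ranged from -0.57 to 0.53 for *Itga4* and -0.06 to 1.83 for *Itgae*.

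Precision is limited by groups of 2 or 3 libraries and by depth, most of all for *Itgae*. Pools and culture cannot be told apart without the 2 LD libraries. Transcript levels say nothing of protein on the cell surface or of integrin activation.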
